A study of Mus musculus with 6 samples.

Results

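Gangliosides are sphingolipids that carry sialic acid on a short sugar chain, and they are abundant in the plasma membranes of the brain. Their synthesis was followed here through 9 enzyme genes that lead from ceramide over glucosylceramide and lactosylceramide to the complex gangliosides: *Ugcg*, *B4galt5*, *B4galt6*, *St3gal5*, *B4galnt1*, *B3galt4*, *St8sia1*, *St8sia5* and *St3gal2*. They were picked by gene symbol out of 55492 genes in the deposited expression table, each symbol stood for a single identifier, and all 9 passed the filter on expression that 15245 genes passed. RNA came from O4-purified cells of whole brains of mice at 16 days of age (P16), 3 WT and 3 *Npc1*-/- mice with 1 library each and no treatment in either group. O4 antibody-coated microbeads bind late oligodendrocyte progenitor cells (OPCs) and immature oligodendrocytes. The *Npc1*-/- mice carried the *Npc1*nih allele in every cell and were F1 hybrids of BALB/cJ and C57BL6/J parents, for which littermates are the stated controls.

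NPC1 is a membrane protein needed for cholesterol to leave the endolysosomal system, and cells without it also store glycosphingolipids. In the Golgi, UGCG adds glucose to ceramide, B4GALT5 and B4GALT6 add galactose, and ST3GAL5 adds the first sialic acid to give the ganglioside GM3. GM3 then either receives a second sialic acid from ST8SIA1, which opens the b-series, or N-acetylgalactosamine from B4GALNT1, which leads into the a-series. B3GALT4 adds a further galactose, and ST3GAL2 and ST8SIA5 add sialic acid to the longer chains. Oligodendrocytes also spend ceramide on galactosylceramide and sulfatide, the main glycolipids of myelin, through UGT8A and GAL3ST1, and early progenitors are known for the b-series ganglioside GD3.

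Levels are given as TPM, a transcript abundance normalized for transcript length and library size, divided by a size factor per sample (scaled TPM). Values of single mice follow the order of replicates 1, 2 and 3. The size factors, medians of ratios over 18690 genes above 0 in every sample, were between 0.727 (*Npc1*-/- replicate 3) and 1.3 (WT replicate 1). Depth, estimated from the whole-fragment spacing of low FPKM values, was between 38000000 and 50250000 fragments per library, so that 1 fragment on 1 kb of effective transcript length was worth between 0.0278 and 0.0393 TPM. *Npc1* itself averaged 43.5 ± 2.21 scaled TPM (SD, n = 3) in WT cells against 4.41 ± 0.726 (SD, n = 3) in mutant cells, with every mutant sample below every WT sample. *Npc1*-/- replicate 3 was the only library with *Xist* above 0.01 TPM (15.6 TPM). It was also the only one without *Ddx3y*, a gene of the Y chromosome (0 TPM, against 14.4 to 23.6 TPM in the others). By these genes that mouse differed in sex from the others, and the part of sex in the values was not tested. No member of the pathway lies on a sex chromosome, but the related gene *Slc35a2* lies on the X chromosome. Oligodendrocyte markers were present in every library, the sum of 8 mature oligodendrocyte markers led by *Mbp* being the highest of the 10 marker sums. That sum overlapped between the groups (174686 to 246360 in WT, 220665 to 434936 in *Npc1*-/-), with 7 of the 8 log2 fold changes above 0. The sum of 6 immature markers overlapped too (2349 to 3425 and 3262 to 5857), with 5 of the 6 log2 fold changes below 0. Most of this sum was *Bcas1* (1601 to 2770 and 2417 to 5384), the marker with a log2 fold change above 0. *Tcf7l2* (13.3 to 16.5 and 9.15 to 13.1) and *Itpr2* (30.1 to 32.2 and 20.7 to 28.2) were lower in every *Npc1*-/- sample. No marker on either list was called by limma. Markers of other cells were present too, and some of their sums differed between the groups. That of 6 cerebellar granule neuron markers overlapped (51.5 to 109.8 in WT, 45.2 to 116.7 in *Npc1*-/-), with 3 log2 fold changes above and 3 below 0. The summed scaled TPM of 5 Purkinje cell markers lay between 204.8 and 236 in WT and between 610 and 727 in *Npc1*-/- samples, and that of 10 neuronal markers between 192 and 226 and between 239 and 292. Sums over 7 microglial (212 to 329 in WT, 98.9 to 187 in *Npc1*-/-), 5 endothelial (508 to 678 and 316 to 389) and 4 mural markers (328 to 487 and 198 to 250) were lower in every *Npc1*-/- sample. The sum of 7 astrocyte markers overlapped (667 to 724 in WT, 450.5 to 862 in *Npc1*-/-), but 5 of them, among them *Slc1a2* (92.6 to 106 and 46.2 to 69.5) and *Gja1* (50.4 to 74.7 and 29.9 to 36.4), were lower and *Gfap* (81.1 to 100.2 and 112 to 272) was higher in every *Npc1*-/- sample. By limma, 3 of the Purkinje cell (*Pcp2*, *Pvalb*, *Car8*) and 2 of the neuronal markers (*Nefl*, *Nefm*) were called higher, 1 microglial marker (*Tmem119*) lower and none of the granule neuron, astrocyte, endothelial or mural ones. No marker on any of these lists was at 0 in all samples. In bulk RNA, fewer cells of a type and less RNA per cell cannot be told apart.

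**Figure D1:**
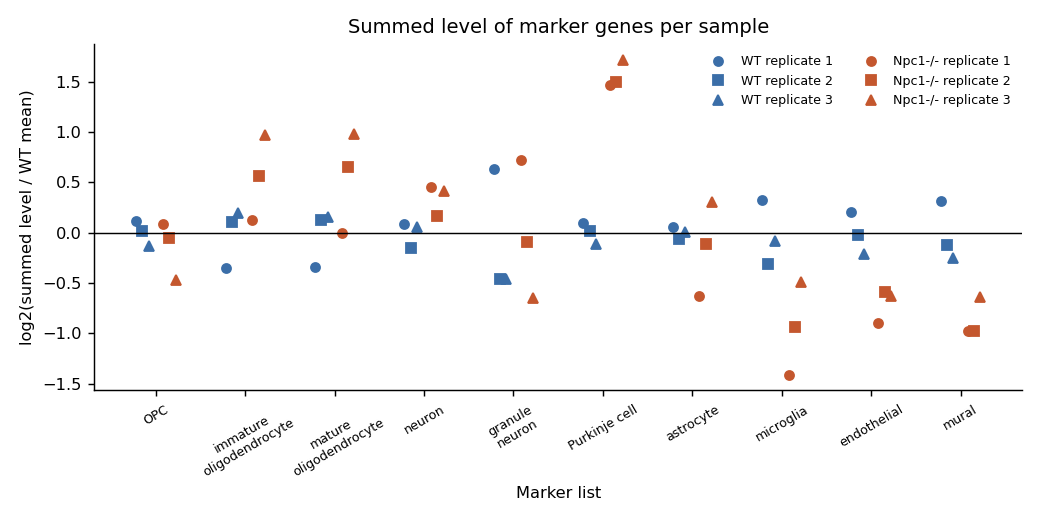
Summed scaled TPM of each marker list per sample, as log2 of the ratio to the WT mean of that list (vertical axis), for 10 lists (horizontal axis). Each point is 1 mouse and its shape is the replicate number. Purkinje cell sums are higher (at least 610 against at most 236) and microglial, endothelial and mural sums lower in every *Npc1*-/- sample.

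Where the promoter is in the RefSeq table used here (GRCm38.p6), the upstream sequence of the member with the highest and of the member with the lowest level is shown, the pair of genes between which the levels below differ most. The lines give the 250 bases before the start, 5′ to 3′, at chr6:72097358-72097607 on the plus strand for *St3gal5* and at chr6:142964453-142964702 on the minus strand for *St8sia1*, and capitals mark GC boxes (GGGCGG, or CCGCCC on the opposite strand).
St3gal5: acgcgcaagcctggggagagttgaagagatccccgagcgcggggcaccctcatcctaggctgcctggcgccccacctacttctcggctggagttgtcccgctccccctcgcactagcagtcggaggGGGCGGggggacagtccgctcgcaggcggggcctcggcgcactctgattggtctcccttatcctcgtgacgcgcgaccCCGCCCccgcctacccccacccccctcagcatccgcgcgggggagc
St8sia1: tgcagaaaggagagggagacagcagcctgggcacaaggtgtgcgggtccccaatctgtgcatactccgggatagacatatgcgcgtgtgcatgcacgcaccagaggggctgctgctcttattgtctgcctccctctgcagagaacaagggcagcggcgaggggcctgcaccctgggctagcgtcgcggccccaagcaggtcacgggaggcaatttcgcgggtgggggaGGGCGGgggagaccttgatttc
The RefSeq start of *St3gal5* lies a short way inside the gene as GENCODE places it, from which the gene positions below are taken, and that of *B4galt5* does too. The start of *Ugcg* lies further inside, so that its whole window (59189300 to 59189549) is within the gene by GENCODE. The table held 5 of the 9 members (*Ugcg*, *B4galt5*, *St3gal5*, *St8sia1* and *B3galt4*). In this window *St3gal5* had 2 GC boxes, 25 CpG dinucleotides and 71.6% G or C, and *St8sia1* 1 GC box, 14 CpG dinucleotides and 63.6% G or C. The remaining entries held 7 (*B4galt5*), 2 (*Ugcg*) and 1 (*B3galt4*) GC boxes, a motif present in 32.7% of all 32851 entries, whose median was 6 CpG dinucleotides and 52.4% G or C. Each motif was searched on both strands. CACGTG occurred in none of the 5 windows and in 6.02% of all entries, and TATAAA likewise in none of the 5 and in 12.4%. CCAAT occurred in 2 of the 5, *St3gal5* and *St8sia1*, and in 33.8% of all entries. These matches describe letters in the window and no binding was measured.

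The 9 enzymes were expressed at low to moderate levels and spanned more than an order of magnitude. In WT cells, mean scaled TPM ranged from 12.9 for *St3gal5* over 11.6 for *St3gal2*, 7.93 for *B4galt5*, 6.26 for *B4galt6*, 4.27 for *Ugcg*, 3.73 for *B4galnt1*, 2.12 for *St8sia5* and 1.57 for *B3galt4* to 0.667 for *St8sia1*. *St3gal5* stood at the 65.1st and *St8sia1* at the 6.28th percentile of the mean level of all genes tested. The ranges of the 3 WT mice overlapped between *St3gal5* and *St3gal2*, *St3gal2* and *B4galt5*, *B4galt5* and *B4galt6*, and *Ugcg* and *B4galnt1*, and were separate between the other neighbours in this order. In *Npc1*-/- cells the order was kept except that *B4galnt1* (4.09) and *Ugcg* (4.03), whose ranges overlapped, exchanged places. There *St3gal5* lay clear of *St3gal2*, and the ranges of *St8sia5* and *Ugcg* overlapped. The lowest deposited value of any member, 0.49 TPM for *St8sia1* in *Npc1*-/- replicate 3, stands for about 17.6 fragments per kb of effective length. Summed over the 9 genes, scaled TPM was 60.1, 46.3 and 46.8 in WT replicates 1, 2 and 3 and 48.9, 52.3 and 45.8 in *Npc1*-/- replicates 1, 2 and 3, so the groups overlapped. *St3gal5* alone made up between 23.3% and 26.4% of that sum in WT and between 27.7% and 31.5% in *Npc1*-/- samples.

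**Figure D2:**
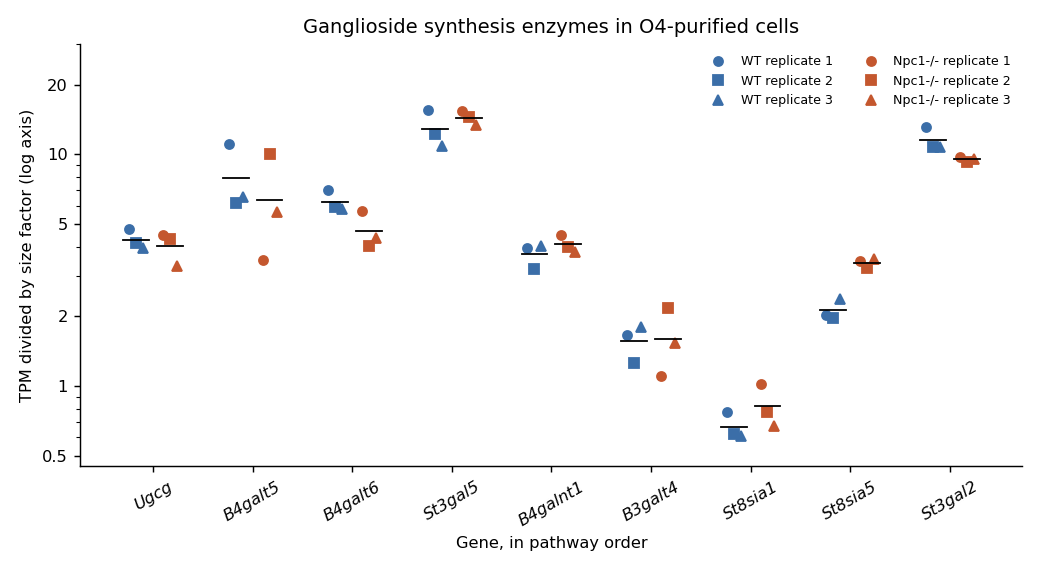
Scaled TPM on a log axis (vertical) of the 9 ganglioside synthesis genes in pathway order (horizontal). Each point is 1 mouse, its shape the replicate number, and each line a group mean. *St8sia5* is higher and *B4galt6* and *St3gal2* are lower in every *Npc1*-/- mouse, while the groups overlap in the other 6 genes.

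Whether loss of NPC1 is accompanied by a change in these genes was tested with limma over all 15245 genes (two-sided, Benjamini-Hochberg adjustment, log2 of scaled TPM plus 0.5, a scale that understates the change of low genes). No member reached an adjusted p below 0.05, where 0.813% of all genes were called, 124 in all, of which 61 (0.4% of all genes) were higher and 63 (0.413%) lower in *Npc1*-/- cells. At an unadjusted p below 0.05 there were 3 of 9 members and 22.2% of all genes. The 3 mice of one genotype lay outside the range of the other in 3 members, 1 above (*St8sia5*) and 2 below (*B4galt6* and *St3gal2*), which is 33.3% of them against 27.5% of all genes. The log2 fold changes (log2FC) of *Npc1*-/- relative to WT, given below with their standard errors (SE), ranged from −0.39 to 0.58 with a median of 0.00, against 0.01 over all genes, and 4 were above and 5 below 0. On TPM as deposited, without size factors, the median over all genes shifted to −0.33, and *St3gal5*, *B4galnt1* and *St8sia1* went from positive values to −0.19, −0.21 and −0.04, which are 0.14, 0.12 and 0.29 above that median. An exact permutation test on 3 mice against 3 cannot give a p below 0.1.

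*Ugcg*, which makes the glucosylceramide from which all these lipids derive, lies on the plus strand of chromosome 4 of GRCm38 (ENSMUSG00000028381, 59189257 to 59222833). It stood at a scaled TPM of 4.76, 4.13 and 3.93 in the 3 WT mice against 4.48, 4.32 and 3.29 in the mutants. The samples of both genotypes lay among each other, with a log2FC of −0.08 (SE 0.15, limma, adjusted p = 0.796) and a 95% interval from −0.43 to 0.26.

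Galactose is added to glucosylceramide by either of the lactosylceramide synthases *B4galt5* and *B4galt6*. *B4galt6* lies on the minus strand of chromosome 18 (ENSMUSG00000056124, 20684599 to 20746404), 8.45 Mb from *Npc1*. The scaled TPM of *B4galt6* was 7.03, 5.94 and 5.81 in WT replicates 1, 2 and 3 and 5.68, 4.04 and 4.35 in *Npc1*-/- replicates 1, 2 and 3. The groups did not overlap, although *Npc1*-/- replicate 1 came close to the lower WT samples. Its log2FC was −0.39 (SE 0.15, 95% interval −0.74 to −0.04, limma, adjusted p = 0.186). Around *Npc1* the mutant mice also carry the strain background of the *Npc1*nih allele, so an effect of that segment and of the loss of NPC1 cannot be told apart for *B4galt6*. Of the 96 genes tested within 20 Mb of *Npc1*, 25 (26.0%) had groups that did not overlap, against 27.5% of all genes. None of them was called by limma, against 0.813% of all genes. These shares describe the region and not a single gene, and an effect of the segment on *B4galt6* was not tested.

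*B4galt5* lies on the minus strand of chromosome 2 (ENSMUSG00000017929, 167298444 to 167349183) and was the most variable member. Scaled TPM reached 11.1, 6.15 and 6.55 in WT replicates 1, 2 and 3 and 3.50, 10.01 and 5.66 in *Npc1*-/- replicates 1, 2 and 3. WT replicate 1 and *Npc1*-/- replicate 2 stood above the other samples, and within *Npc1*-/- cells the highest value was 2.86 times the lowest. The log2FC of −0.36 had an SE of 0.37 and a 95% interval from −1.22 to 0.51 (limma, adjusted p = 0.630), an interval that holds both a 2-fold decrease and an increase. Leaving out 1 library moved it to between −0.72 and −0.02.

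*St3gal5*, the GM3 synthase, lies on the plus strand of chromosome 6 (ENSMUSG00000056091, 72097592 to 72154571). Levels were 15.6, 12.2 and 10.9 scaled TPM in the 3 WT mice against 15.4, 14.5 and 13.4 in the mutants. WT replicate 1 was above all mutant samples, and the log2FC was 0.17 (SE 0.14, 95% interval −0.16 to 0.50, limma, adjusted p = 0.536), or −0.19 on TPM as deposited.

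The enzymes on either side of the branch at GM3 gave no call either. *B4galnt1*, the GM2 and GD2 synthase, lies on the plus strand of chromosome 10 (ENSMUSG00000006731, 127165225 to 127172330). Scaled TPM was 3.94, 3.22 and 4.03 in the 3 WT mice against 4.49, 4.0 and 3.78 in the mutants. The ranges overlapped, and the log2FC was 0.12 (SE 0.13, 95% interval −0.19 to 0.43, limma, adjusted p = 0.650), or −0.21 on TPM as deposited. *Slc26a10*, which overlaps it on the other strand, had between 1.11 and 1.39 TPM in WT and between 0.26 and 0.53 TPM in *Npc1*-/- samples, and its part in the values of *B4galnt1* was not tested.

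*St8sia1*, the GD3 synthase, lies on the minus strand of chromosome 6 (ENSMUSG00000030283, 142821545 to 142964452). It had the lowest level, with 0.772, 0.624 and 0.607 scaled TPM in the 3 WT mice against 1.03, 0.772 and 0.674 in the mutants. *Npc1*-/- replicate 1 stood above the WT range and replicate 2 at its upper end, and the log2FC was 0.18 (SE 0.18, 95% interval −0.26 to 0.61, limma, adjusted p = 0.637), or −0.04 on TPM as deposited. The summed level of 5 OPC markers, between 204 and 244 in WT and between 162 and 239 in *Npc1*-/- samples, overlapped between the groups as well.

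*B3galt4*, which completes the core of GM1 and GD1b, lies on the minus strand of chromosome 17 (ENSMUSG00000067370, 33949909 to 33951488). Levels were 1.67, 1.26 and 1.79 scaled TPM in the 3 WT mice against 1.11, 2.18 and 1.53 in the mutants. The mutant samples enclosed the WT range, the log2FC was 0.00 (SE 0.22, limma, adjusted p = 1.00), and the 95% interval from −0.52 to 0.52 leaves room for a change of either sign.

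*St3gal2*, which sialylates the outer galactose of complex gangliosides and also acts on glycoproteins, was the second most abundant member. It lies on the plus strand of chromosome 8 (ENSMUSG00000031749, 110919922 to 110972480). It had a scaled TPM of 13.2, 10.8 and 10.8 in WT replicates 1, 2 and 3 and 9.76, 9.29 and 9.52 in *Npc1*-/- replicates 1, 2 and 3. All mutant values lay below all WT values, with WT replicate 1 above the rest. The log2FC was −0.26 (SE 0.11, 95% interval −0.52 to −0.01, limma, adjusted p = 0.208), and no change was called. Microglial, endothelial and mural marker sums and 5 of 7 astrocyte markers were lower in the same samples, as they were beside *B4galt6*, and their part in either level was not tested.

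*St8sia5*, the sialyltransferase of the most highly sialylated gangliosides, showed the lowest adjusted p among the members. It lies on the plus strand of chromosome 18 (ENSMUSG00000025425, 77185839 to 77258771), the chromosome of *Npc1*, at a distance of 64.9 Mb. An effect of the strain background on that chromosome was not tested for *St8sia5* either. Scaled TPM was 2.02, 1.97 and 2.38 in WT replicates 1, 2 and 3 and 3.46, 3.23 and 3.52 in *Npc1*-/- replicates 1, 2 and 3. The lowest *Npc1*-/- sample was thus above the highest WT sample, and the mutant values varied little. The means were 2.12 ± 0.222 (SD, n = 3) and 3.4 ± 0.155 (SD, n = 3), and the log2FC was 0.58 (SE 0.12, 95% interval 0.28 to 0.87, limma, adjusted p = 0.0628), so no change was called. Leaving out 1 library at a time gave values from 0.53 to 0.64 with adjusted p-values from 0.0967 to 0.204 by limma. On TPM as deposited the log2FC was 0.26 (limma, adjusted p = 0.442), which is 0.59 above the median of all genes on that scale. *Gm7276*, which overlaps it on the other strand, did not exceed 0.51 TPM in any sample, and the use of strand in counting is not given in the sources used here. The Purkinje cell and neuronal marker sums given above were higher in the same 3 samples, and their part in the level of *St8sia5* was not tested.

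**Figure D3:**
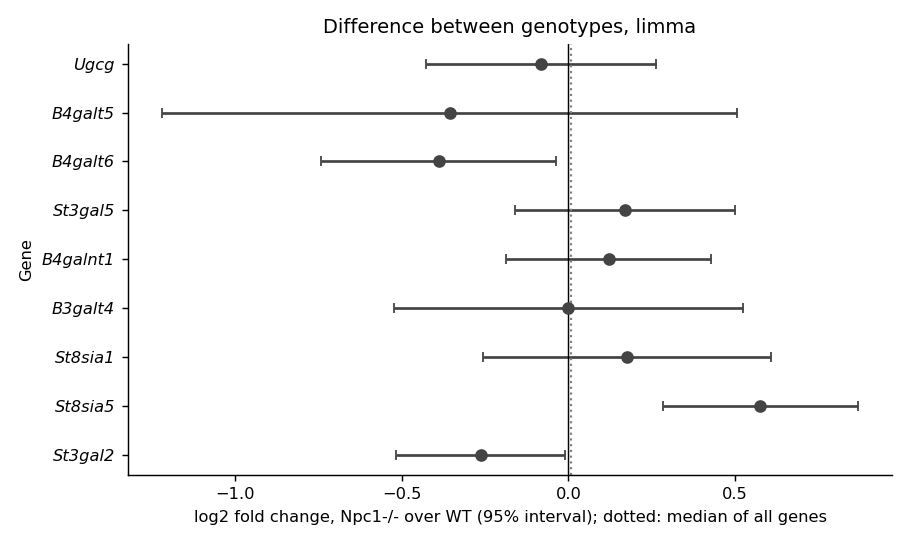
Log2FC of *Npc1*-/- over WT by limma with its 95% interval (horizontal axis), for the 9 genes (vertical axis). The dotted line is the median of all genes, 0.01. The intervals of *St8sia5*, *B4galt6* and *St3gal2* leave out 0 before adjustment over all genes, and that of *B4galt5* is the widest.

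The genes did not vary as 1 unit across the 6 libraries. Over the 36 pairs of members the median Pearson correlation of log2 scaled TPM was 0.0475 (n = 6 samples, which share their libraries and size factors, given as a description). It was highest for *B4galt6* with *St3gal2* (0.875), both lower in *Npc1*-/- samples, and for *St3gal5* with *St8sia1* (0.815). It was lowest for *St8sia5* with *St3gal2* (−0.827). *B4galt5* and *B3galt4*, both highest among the mutant samples in replicate 2, correlated at 0.792.

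Ratios of TPM between enzymes that share or follow a substrate do not depend on the size factor, and 4 were compared. The ratio of *St8sia5* to *St3gal2*, both acting on complex gangliosides, was 0.153, 0.183 and 0.221 in the 3 WT mice against 0.354, 0.348 and 0.370 in the mutants. It was higher in every mutant sample, by 0.96 on the log2 scale or 1.95-fold, with log2 means of −2.45 ± 0.26 (SD, n = 3) and −1.49 ± 0.05 (SD, n = 3) and an exact permutation p of 0.1, or 0.2 adjusted over the 4 ratios. Both genes contribute to it, *St8sia5* through its higher and *St3gal2* through its lower values.

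The ratio of *Ugcg* to *Ugt8a* compares glucosylation with galactosylation of ceramide. *Ugt8a* TPM exceeded *Ugcg* TPM 76.0, 98.1 and 94.5 times in the 3 WT mice against 98.9, 107 and 135 times in the mutants. The groups were separate but nearly touched, and the log2 ratio of *Ugcg* to *Ugt8a* differed by −0.34 (exact permutation p = 0.1, adjusted p = 0.2). The ratio of *St8sia1* to *B4galnt1* at the GM3 branch was between 0.15 and 0.196 in WT and between 0.178 and 0.228 in *Npc1*-/- samples, which overlap (difference of log2 means 0.15, exact permutation p = 0.6, adjusted p = 0.8). With 0.5 added to both TPM values the difference was 0.17 and the groups were separate (exact permutation p = 0.1). The ratio of *B4galt6* to *B4galt5* spread over 0.632 to 0.966 in WT and 0.403 to 1.62 in mutant samples, which overlap (difference of log2 means −0.04, exact permutation p = 1, adjusted p = 1), and with 1 library left out the difference lay between −0.55 and 0.45.

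**Figure D4:**
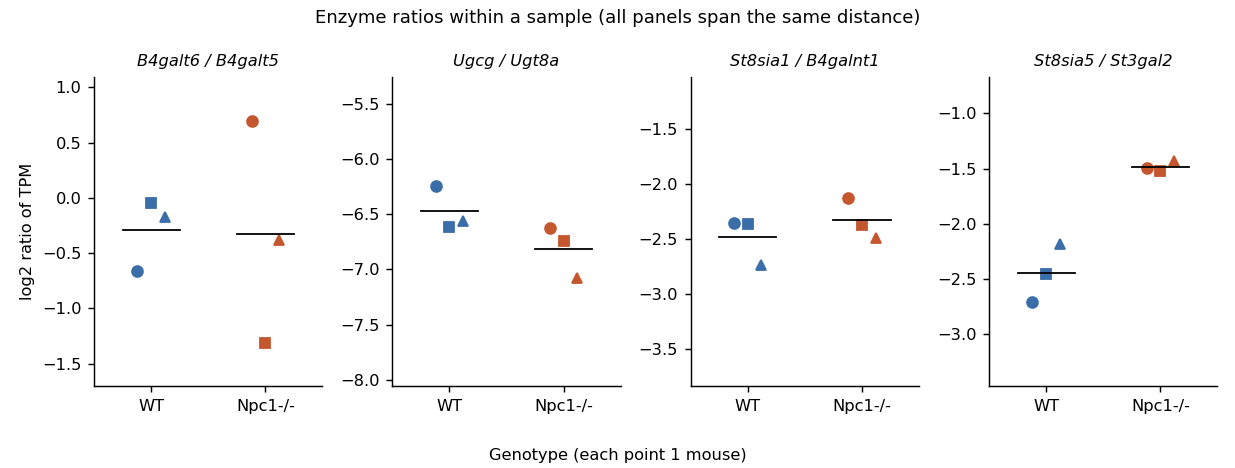
Log2 ratio of TPM (vertical axis, every panel spanning the same distance) for 4 pairs of enzymes by genotype (horizontal axis). Each point is 1 mouse, its shape the replicate number, and each line a group mean. The *St8sia5* to *St3gal2* ratio separates the genotypes with a gap (at most 0.221 in WT, at least 0.348 in *Npc1*-/-), the *Ugcg* to *Ugt8a* ratio narrowly, and both other ratios overlap.

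Around the 9 genes, 54 further genes on 5 lists were examined: other ganglioside sialyltransferases, paralogs from the same enzyme families, enzymes that divert ceramide or lactosylceramide to other lipids, substrate supply, and breakdown. Of these, 52 were tested and 1 was called by limma, the paralog *St3gal6*, against 0.413% of all genes called lower. Their median log2FC was 0.03. In 21 of them (40.4%) the groups did not overlap, 11 above and 10 below, against 27.5% of all genes.

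Among paralogs, *St3gal6*, which sialylates mainly glycoprotein chains, fell from 27.7, 21.4 and 19.9 scaled TPM in the 3 WT mice to 9.39, 11.1 and 12.9 in the mutants. It lies on chromosome 16 (ENSMUSG00000022747, 58468125 to 58524243), where *Dcbld2* overlaps it on the other strand. Its log2FC was −1.01 (SE 0.16, limma, adjusted p = 0.0469), and the call was lost when any one of 5 of the 6 libraries was left out (adjusted p from 0.0698 to 0.190), but not without *Npc1*-/- replicate 3 (adjusted p = 0.0362). Microglial, endothelial and mural sums and the 5 astrocyte markers were lower in the same samples, and their part in this fall was not tested. *B4galt4* averaged 15.3 ± 0.774 (SD, n = 3) scaled TPM in WT against 8.95 ± 1.53 (SD, n = 3) in mutant cells (log2FC −0.75, limma, adjusted p = 0.0546). *B4galt1*, the galactosyltransferase of glycoproteins, had 4.76 ± 0.894 (SD, n = 3) and 2.56 ± 0.260 (SD, n = 3) (log2FC −0.77, limma, adjusted p = 0.0583). *B3galt5* was higher in each mutant sample, averaging 18.8 ± 4.35 (SD, n = 3) in WT against 39.7 ± 8.67 (SD, n = 3) in mutant cells (log2FC 1.06, limma, adjusted p = 0.0558). Of 18 paralogs, 16 were tested, and *B4galnt2* and *B4galnt3* stayed below the filter.

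Among the 6 other sialyltransferases that can act on gangliosides, none was called. *St6galnac6*, one of the enzymes of the alpha-series, had 12.2, 12.1 and 15.1 scaled TPM in the 3 WT mice against 16.9, 17.4 and 20.04 in the mutants (log2FC 0.45, limma, adjusted p = 0.0902), without overlap. *St3gal1* had 3.24, 2.92 and 2.6 in the 3 WT mice against 1.35, 1.95 and 2.11 in the mutants (log2FC −0.58, limma, adjusted p = 0.110), also without overlap. *St6galnac4* (log2FC −0.29) and *St6galnac5* (−0.23) overlapped between the groups.

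**Figure D5:**
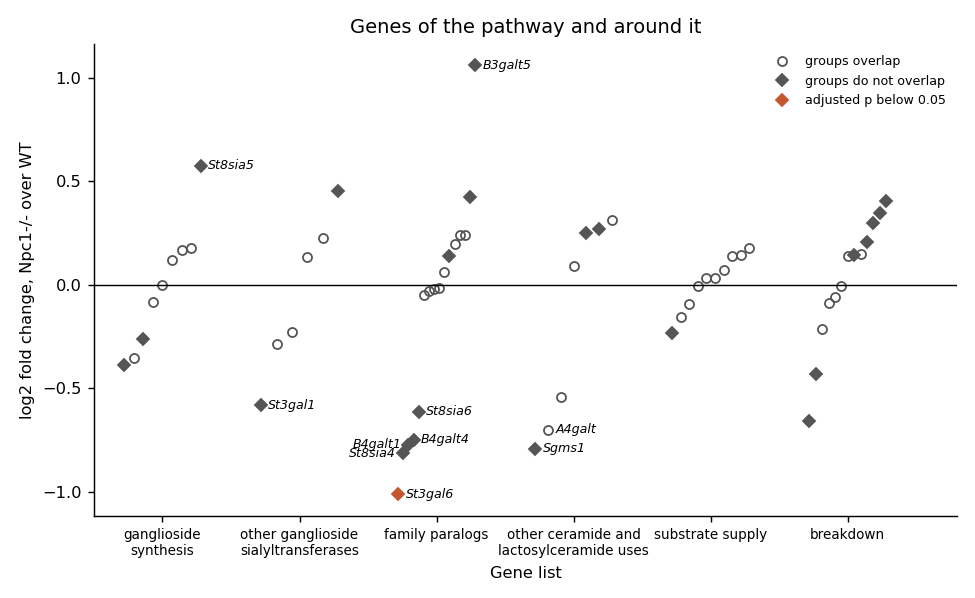
Log2FC of *Npc1*-/- over WT (vertical axis) for the genes tested on 6 lists (horizontal axis). Each symbol is 1 gene, open where the 3 mice of each genotype overlap and filled where they do not. *St3gal6* is the only gene with an adjusted p below 0.05, and the 9 synthesis genes lie between −0.39 and 0.58.

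Enzymes that use ceramide or lactosylceramide for other lipids gave no call among 7 genes. The galactolipid genes far exceeded those of the ganglioside route: *Ugt8a* averaged 379 ± 22.7 (SD, n = 3) scaled TPM in WT against 450.2 ± 11.2 (SD, n = 3) in mutant cells (log2FC 0.25, limma, adjusted p = 0.194). *Fa2h*, which hydroxylates the fatty acids of myelin galactolipids, had a log2FC of 0.27 (limma, adjusted p = 0.179). Neither gene overlapped between the groups, all mutant samples being higher. On TPM as deposited both log2FC were negative, *Ugt8a* at −0.13 and *Fa2h* at −0.10. *Sgms1*, a sphingomyelin synthase, had 42.8, 42.5 and 48.5 in the 3 WT mice against 18.04, 25.9 and 35.4 in the mutants (log2FC −0.79, limma, adjusted p = 0.0994), without overlap. Its paralog *Sgms2* (−0.54) and the globoside enzyme *A4galt* (−0.70) had adjusted p-values of 0.179 and 0.153 by limma.

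Of the 10 genes for sugar nucleotides and glycolipid transfer, none was called, and the groups did not overlap in 1 of them (10% against 27.5% of all genes). That gene was *Gne*, which starts sialic acid synthesis, averaging 9.66 ± 0.938 (SD, n = 3) scaled TPM in WT against 8.13 ± 0.735 (SD, n = 3) in mutant cells (log2FC −0.24, limma, adjusted p = 0.283). *Cmas*, which activates sialic acid (log2FC 0.14), the galactose nucleotide transporter *Slc35a2* (0.14) and *Plekha8*, which carries glucosylceramide (0.18), had adjusted p-values by limma between 0.499 and 0.624, and on TPM as deposited these 3 log2FC were between −0.23 and −0.16.

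Among 13 breakdown genes none was called, and in 7 the groups did not overlap, 5 above and 2 below (53.8% against 27.5% of all genes). The sialidase *Neu1* (log2FC 0.35, limma, adjusted p = 0.111) and *Galc*, the galactosylceramidase (0.30, adjusted p = 0.119), were higher in each mutant sample than in any WT sample without passing the test, and on TPM as deposited their log2FC were −0.01 and −0.07.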

How the data were processed

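O4-purified cells of 6 separate mice gave poly(A) libraries that were sequenced in read pairs by the authors. The methods name bbduk, STAR with GRCm38 and featureCounts, whereas the submitters' processing notes name cutadapt 2.3, STAR 2.7.8a and RSEM 1.3.3. The authors deposited TPM and FPKM per gene with 2 decimals, and how strand was used is not given in the sources used here.

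These values are not counts, so limma 3.58.1 (R 4.3.3, lmFit and eBayes, trend on, genotype alone in the model) was run on log2 of TPM divided by median-of-ratios size factors, plus 0.5. A gene entered at a mean TPM of 0.5 or more and was called when its adjusted p was below 0.05 and its log2FC at least 0.1 in either direction. The paper's filter on counts could not be applied. Of 200 genes changed by 1.5 (log2) in simulated data of 15245 genes with independent noise, 165 were recovered. The members lay between −0.39 and 0.58, so this share does not give the sensitivity for changes of their size. Depth was estimated by finding, per library, the size and fragment length that made low FPKM values whole fragments. Between 78.5% and 85.0% of them came within 0.15 of a whole number, where evenly spread values without fitting would give 30%. Size and length were chosen for this closeness on the same values, so the share is no independent check of the depth. Positions are from GENCODE M21 (GRCm38, 55227 of 55492 identifiers found). Other steps used Python 3.11.15, scipy 1.17.1 and matplotlib 3.10.9.

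Members and lists were chosen with earlier results of these data known. All 9 members, *Npc1*, the genes in the 4 ratios and, from each of 5 related lists, the called genes and up to 4 with the lowest adjusted p are named, except 2 breakdown genes that are not reported here. *B4galnt2*, *B4galnt3* and genes overlapping a named one were named after their values were seen. Alternatives were FPKM, TPM as deposited, quantile normalization, other pseudocounts and filters, limma without trend or robust, the replicate number as a block, a curve on transcript length (span 0.3) and leaving out each sample.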

Additional observations from a re-analysis of the deposited data

How the results depend on the processing

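Members were called in none of the alternatives but those with the replicate number as a block. With the replicate number as a block, 1 member (*St8sia5*, adjusted p = 0.0359 by limma) was called, and again 1 with the block and the length curve together. Same-numbered samples correlated at 0.414, 0.0602 and 0.326 in their deviations from the group means, so the numbers were not taken to pair the mice, although every sample correlated best with its own number. The block raised the calls over all genes from 124 to 2011, and to 1672 with the length curve. Other counts over all genes were 924 on TPM as deposited (54 higher and 870 lower, against 61 and 63), 239 with quantile normalization, 21 without a filter, 447 at a mean TPM of at least 5 and 42 without trend. With each sample left out they lay between 5 and 488, the 488 being without *Npc1*-/- replicate 3. Related genes called numbered 10 on TPM as deposited, 8 with the block, 9 with the block and the length curve, 4 at a mean TPM of at least 5, and 0 without a filter, without trend or with the length curve, and between 0 and 3 with each sample left out. *St3gal6* was not called when any WT sample, or *Npc1*-/- replicate 1 or 2, was left out. On TPM as deposited the median of all genes shifted to −0.33 and that of the members to −0.29. There *St3gal5* (−0.19), *B4galnt1* (−0.21), *St8sia1* (−0.036), *Fa2h* (−0.10), *Cmas* (−0.22), *Slc35a2* (−0.23), *Plekha8* (−0.16), *Neu1* (−0.0088), *Galc* (−0.066) and *Ugt8a* (−0.13) changed sign. The member median was −0.31 at a mean TPM of at least 5, where 4 members were tested, and lay between −0.13 and 0.062 with each sample left out. *Ugt8a* was also reversed with quantile normalization (−0.056). *B3galt4* was 0.047 with quantile normalization and 0.0034 with a pseudocount of 1, and lay between −0.19 and 0.18 with each sample left out. With a sample left out, *Ugcg* lay between −0.16 and 0.041, *Plekha8* between −0.0028 and 0.29, and the log2 ratio of *B4galt6* to *B4galt5* differed by between −0.55 and 0.45. The ratio of *St8sia5* to *St3gal2* kept its direction under every alternative run, with differences between 0.83 and 1.09. The cause of these shifts was not tested. How far sequencing depth limits these values was not tested.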
